A study of Mus musculus with 2 samples.

Results

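The interferon-inducible GTPases measured here were 10 listed genes of the guanylate-binding protein (GBP) and immunity-related GTPase (IRG) families, taken as all non-control array probes whose RefSeq transcript belonged to Igtp, Irgm1, Irgm2, Iigp1, Tgtp1, Gbp2, Gbp3, Gbp5, Gbp6 or Gbp7. All 10 genes had a probe, 13 probes in all, out of 20653 named genes and 39413 probes on the arrays. The RNA came from monocytic myeloid-derived suppressor cells (M-MDSCs), immature myeloid cells that restrain T cells in tumours. Female BABL/c mice carried subcutaneous tumours of 4T1, a transplantable mouse mammary carcinoma line. They were kept for 16 days on the normal-salt diet (NSD), which was chow with 0.4% NaCl and tap water, or on the high-salt diet (HSD), which was chow with 4% NaCl and drinking water with 1% NaCl. By the study's methods they were young adults, and the sample labels give no age. M-MDSCs were taken from the tumours with a magnetic bead kit that uses antibodies to Gr-1 and Ly-6G, and the cells of a diet group were mixed in equal numbers before RNA extraction. Each group was therefore 1 pooled RNA on 1 single-colour (Cy3) array, no spread between mice could be computed, and no difference was tested.

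IRG proteins and GBPs are the main cell-autonomous defence induced by interferon-γ in mouse myeloid cells. They bind and hydrolyse GTP and gather on the vacuoles of intracellular parasites and bacteria, whose membranes they break open, and GBPs in addition help expose bacterial products to inflammasomes. Among the IRG proteins, Igtp (also called Irgm3), Irgm1 and Irgm2 form the regulatory GMS class, named for a methionine in the nucleotide-binding motif, which sits on the cell's own membranes and holds the effector GKS class inactive there. Iigp1 (Irga6) and Tgtp1 (Irgb6) belong to the GKS class, which attacks the vacuole.

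The GTPase genes did not move as a block between the diets. The probes of the regulatory GMS genes were all about as much lower in the HSD group, with log2 fold changes (HSD minus NSD) from -1.58 to -1.48, and Gbp7 was lower still at -2.08. Gbp2 was lower by less, Gbp3 was just short of 1.5-fold, Gbp5 and the brighter probes of Gbp6 and Iigp1 stayed within 1.5-fold, and Tgtp1 was 1.60-fold higher. Probes were counted as lower or higher at a fold of at least 1.5 where at least 1 array showed them well above background. By this rule 8 of the 13 GTPase probes (61.5%) were lower and 1 was higher, whereas 8.91% of the 29628 such probes on the arrays were lower and 10.2% were higher. The genes were listed with earlier results of these data known, so these shares only describe them. At 2-fold, 5 GTPase probes were lower, against 3.51% of all probes. Counted by the brightest probe of each gene, 5 of the 10 genes were lower and 1 was higher, against 10.3% and 9.86% of the 16312 genes with a usable probe. The median log2 fold change was -0.69 over the 13 probes and 0.058 over the 27236 probes that were above background on each array.

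**Figure D1:**
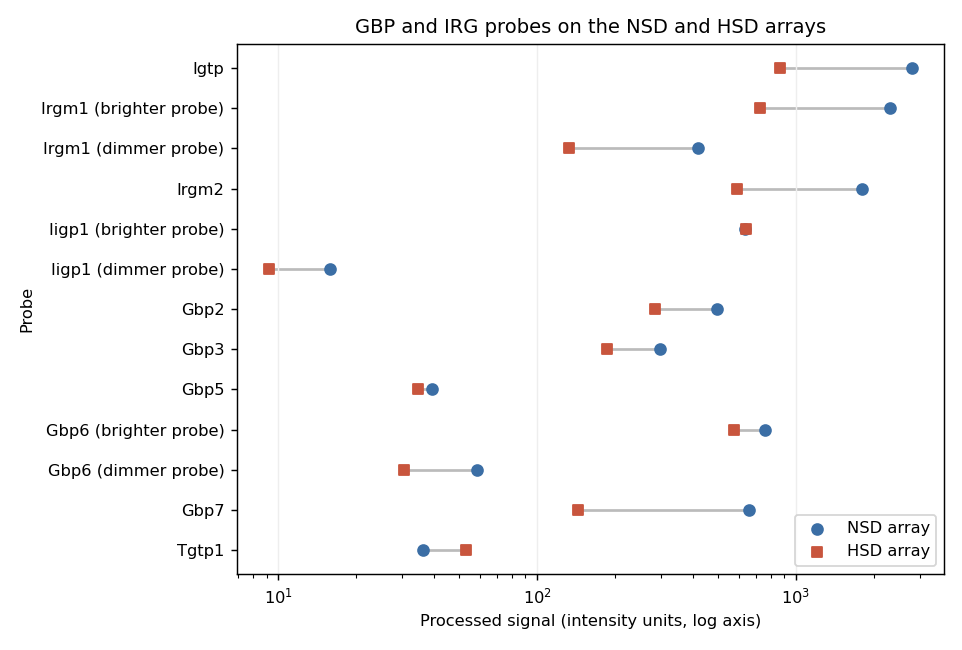
Processed signal of the 13 GTPase probes on the NSD array (blue circles) and the HSD array (red squares), in intensity units on a log axis, with a grey line joining the values of a probe. The widest gaps belong to Gbp7, Igtp, Irgm1 and Irgm2, with the HSD value on the left, and only Tgtp1 and the brighter Iigp1 probe have the HSD value on the right.

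On both arrays all 13 probes stood well above background, none of their spots was flagged, and none was saturated. Intensities below are as extracted from the scans, and fold changes follow subtraction of each array's 75th percentile, which was 252 units for NSD and 233 for HSD, so that equal intensities give a slightly positive log2 fold change. The error model of the scanner software put the error of the GTPase signals at 10.0% to 11.6% under NSD and 10.0% to 14.0% under HSD, which gave a standard error of 0.20 to 0.26 for the log2 fold changes. Probes printed in several spots gave a second measure of the noise within an array. Spots of the same probe differed by 1.5-fold or more in 0.606% of pairs over 1000 units, in 0.421% of pairs from 100 to 1000 units and in 6.18% of pairs under 100 units. Neither measure covers the variation between mice or cell preparations. In RNA from pooled cells, fewer cells of a type and less RNA per cell cannot be told apart.

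Interferons reach these genes through promoter elements of known sequence. Type I interferons act through a complex with IRF9 that binds the interferon-stimulated response element (ISRE), to which IRF1 can also bind, and interferon-γ acts through the gamma-activated site (GAS). The core of the ISRE, GAAANNGAAA on either strand, and the GAS, TTCNNNGAA, which reads the same on both strands, were searched in RefSeq promoters (assembly GRCm38.p6) running from 250 bases before to 50 bases after the transcript start. Of 32851 promoters of all genes, 1131 (3.44%) held an ISRE core and 2726 (8.3%) a GAS. The promoter table matched 8 of the 10 GTPase genes, with 9 promoters, and not Gbp6 or Iigp1. All 8 matched genes had a promoter with an ISRE core, and 5 had one with a GAS. A match describes the letters and is not evidence of binding.

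**Figure D2:**
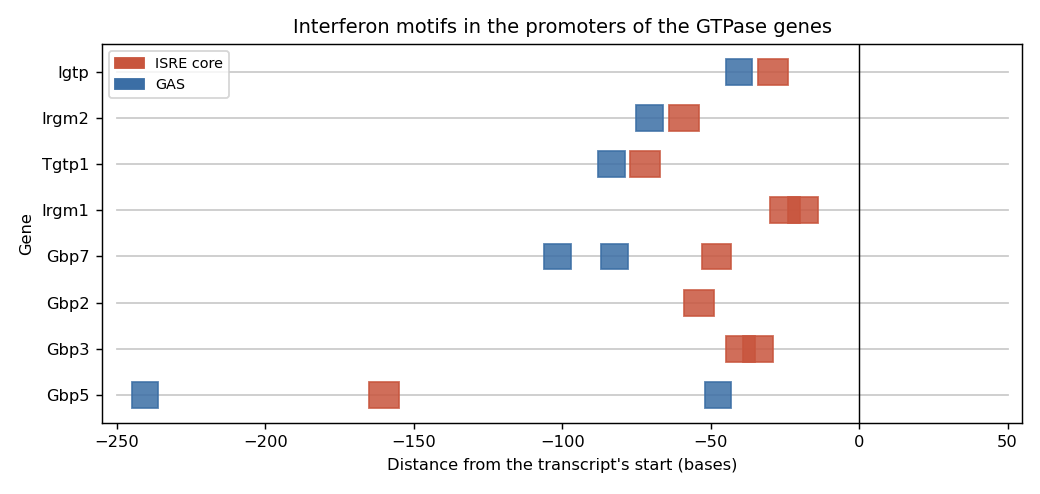
Positions of ISRE cores (red) and GAS matches (blue) in the promoters of the 8 matched GTPase genes, as distance in bases from the transcript start (vertical line), with overlapping matches drawn darker. All matches lie before the start, and in Igtp, Irgm2 and Tgtp1 a GAS stands just before the ISRE core.

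Igtp, which resides on the endoplasmic reticulum and is needed for resistance to Toxoplasma, was the only GTPase gene printed in several spots. Its 10 spots on the NSD array ran from 2605 to 2933 units with a median of 2807, and its 10 spots on the HSD array from 825 to 964 units with a median of 860. The SD of the log2 signal between spots was 0.051 under NSD and 0.062 under HSD. The mean signal was 2812 units under NSD and 868 under HSD, a 2.99-fold lower value (log2 fold change -1.58).

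Irgm1, which is found on the Golgi and on lysosomal membranes and is required for survival of mycobacterial infection, was measured by 2 probes. The brighter probe read 2297 units under NSD and 727 under HSD, and the dimmer one 419 and 132 units. Their fold changes were nearly equal, 2.92-fold and 2.93-fold lower (both -1.55 on the log2 scale). Irgm2, the third regulatory gene, read 1790.4 units under NSD and 592 under HSD, 2.79-fold lower (-1.48). The 4 GMS probes, which target 3 genes, thus lay between -1.58 and -1.48 on the log2 scale.

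The promoter windows of the GMS genes are printed to show how alike these genes are at their starts. Each window covers the 120 bases before the transcript start on the strand of the gene, chr11:58199436-58199555 on the plus strand for Igtp, chr11:58214857-58214976 on the plus strand for Irgm2 and chr11:48871421-48871540 on the minus strand for Irgm1. Capitals mark GAS and ISRE core matches.
Igtp: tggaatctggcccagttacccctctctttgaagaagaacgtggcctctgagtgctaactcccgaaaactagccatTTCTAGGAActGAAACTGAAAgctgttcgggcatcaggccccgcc
Irgm2: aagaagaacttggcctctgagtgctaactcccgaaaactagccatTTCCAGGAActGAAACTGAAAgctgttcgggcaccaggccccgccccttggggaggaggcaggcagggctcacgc
Irgm1: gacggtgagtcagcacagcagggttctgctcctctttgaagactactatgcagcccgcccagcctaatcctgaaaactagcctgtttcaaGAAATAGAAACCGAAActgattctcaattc
In Igtp the GAS began 45 bases and the ISRE core 34 bases before the start, and in Irgm2 they began at 75 and 64 bases, so that the spacing was 11 bases in both. Irgm1 had overlapping ISRE cores at 30 and 24 bases and no GAS.

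Of the effector GKS genes, Iigp1 and Tgtp1 were not lower by their brightest probes, whereas other genes of this class, Ifi47 (-1.72), Gm12250 (-1.29) and Tgtp2 (-1.13), were, so the values did not divide the GMS from the GKS class. The brighter probe of Iigp1 read 634 units under NSD and 640.5 under HSD, which came to 0.13 on the log2 scale after scaling. The dimmer Iigp1 probe, at 15.8 and 9.21 units, was 1.59-fold lower (-0.67, software standard error 0.26), so the probes of this gene differed by 0.79 on the log2 scale. The dimmer probe lay in the range of signal where spots of the same probe vary most. With normexp background correction in place of the processed signal its difference was 0.0041, and the brighter probe gave 0.15. This correction adds an offset of 50 units, which by itself shrinks the fold changes of dim probes.

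Tgtp1 was the only GTPase gene that was higher in the HSD group. Its single probe read 36.1 units under NSD and 53.1 under HSD, 1.60-fold higher (0.67). With normexp background correction the value was 0.31 on the log2 scale, below 1.5-fold. Its close paralogue Tgtp2 moved the other way, from 336 units in the NSD group to 142 in the HSD group (2.19-fold lower, -1.13), by its one probe above background. How far a probe of either gene also binds RNA of the other was not tested, since the probe sequences were not used here. The windows of both genes are printed to show that the Tgtp genes carry the same GAS and ISRE arrangement although their probes moved in opposite directions. They lie on the minus strand, with the matches in capitals, at chr11:48992247-48992366 for Tgtp1 and chr11:49064213-49064332 for Tgtp2.
Tgtp1: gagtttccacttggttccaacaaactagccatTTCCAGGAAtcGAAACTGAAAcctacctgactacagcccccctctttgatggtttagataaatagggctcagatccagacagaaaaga
Tgtp2: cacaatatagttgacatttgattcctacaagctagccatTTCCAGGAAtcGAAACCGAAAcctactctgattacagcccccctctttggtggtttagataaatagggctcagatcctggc
The GAS began 88 bases before the start in Tgtp1 and 81 bases before it in Tgtp2, with the ISRE core at 77 and 70 bases. A GAS followed by an ISRE core at this spacing of 11 bases between first bases, which was picked after the matches were seen, occurred in 5 of the 32851 promoters (0.0152%). The genes were Igtp, Irgm2, Tgtp1, Tgtp2 and Gm12185, all of the IRG family, whose tandem copies share promoter sequence and are not independent examples.

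Among the GBP genes, 3 of 6 probes were lower and none was higher, against 8.91% and 10.2% of all probes counted. Their median log2 fold change was -0.63. Gbp7, which has been linked to assembly of the phagocyte oxidase on vacuoles, was the GTPase gene with the largest difference. It read 657 units under NSD and 143 under HSD, 4.23-fold lower (-2.08). Gbp2, a prenylated GBP that coats parasite vacuoles, read 495 and 284 units, 1.61-fold lower (-0.69). Gbp3 read 299 units under NSD and 185 under HSD, and at 1.49-fold lower (-0.58) it was just outside the threshold.

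Gbp5, which is prenylated and has been tied to NLRP3 inflammasome assembly, read 39.1 units under NSD and 34.8 under HSD, a log2 difference of -0.055 that turned to 0.075 with normexp background correction. The Gbp6 probes differed by 0.53 on the log2 scale. The brighter one read 761 and 577 units, 1.22-fold lower (-0.29), and the dimmer one read 58.3 and 30.6 units, 1.76-fold lower (-0.82), which became -0.27 with normexp background correction. The GBP genes therefore spanned a wider range than the GMS genes, from a difference near 0 in Gbp5 to the 4.23-fold lower value of Gbp7.

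The promoter windows of Gbp7, Gbp2, Gbp3 and Gbp5 are printed because these genes lie in the same array of GBP genes and moved by unequal amounts. They lie on the plus strand and end just before the transcript start, at chr3:142530216-142530335 for Gbp7, chr3:142620543-142620662 for Gbp2, chr3:142559924-142560043 for the first promoter of Gbp3 and chr3:142496684-142496933 for Gbp5, where a longer window of 250 bases holds all matches. Capitals mark GAS and ISRE core matches.
Gbp7: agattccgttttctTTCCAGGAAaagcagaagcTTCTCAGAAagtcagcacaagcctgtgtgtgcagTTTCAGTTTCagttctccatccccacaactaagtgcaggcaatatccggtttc
Gbp2: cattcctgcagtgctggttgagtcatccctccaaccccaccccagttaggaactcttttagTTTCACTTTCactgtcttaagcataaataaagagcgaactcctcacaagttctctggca
Gbp3: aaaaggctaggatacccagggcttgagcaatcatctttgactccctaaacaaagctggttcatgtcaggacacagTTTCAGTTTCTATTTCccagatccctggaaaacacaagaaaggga
Gbp5: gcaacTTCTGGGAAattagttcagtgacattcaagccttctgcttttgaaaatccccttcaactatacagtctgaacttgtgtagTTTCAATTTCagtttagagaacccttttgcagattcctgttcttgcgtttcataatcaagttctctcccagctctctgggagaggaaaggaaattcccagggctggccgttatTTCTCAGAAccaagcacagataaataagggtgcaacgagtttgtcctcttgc
Gbp7 held a GAS at 106 and at 87 bases before its start and an ISRE core at 53 bases. Gbp2 held an ISRE core at 59 bases, and Gbp3 held overlapping cores at 45 and 39 bases, both without a GAS, while the second promoter of Gbp3 held neither motif. Gbp5 held a GAS at 245 and at 52 bases and an ISRE core at 165 bases, so that the GBP genes with the largest and the smallest difference, Gbp7 and Gbp5, both carried both motifs.

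The other GBP and IRG genes moved mostly in the same direction as the lower GTPase genes. Of 20 listed, 14 had a named probe and 13 a usable one. Of these 13, 8 were lower and none was higher by the brightest probe, against 10.3% and 9.86% of all genes with a usable probe. The median log2 fold change was -0.76. Ifi47 (Irgd), an IRG gene next to Tgtp2, read 1820.2 units under NSD and 512 under HSD, 3.29-fold lower (-1.72). Gm12250, which encodes Irgb10, a GTPase that opens bacterial membranes for inflammasome sensing, read 217 and 82.0 units (-1.29). Gbp9 read 187 and 62.5 units, 2.76-fold lower (-1.46). Gvin1, a very large interferon-inducible GTPase, read 3583 and 1916 units by its brighter probe (-0.79) and gave -0.38 by the other.

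Gbp2b (formerly Gbp1) read 565 and 314 units (-0.73) by its brighter probe and gave -0.52 by the other. Irgc1, an IRG gene known from the testis, was lower at very low signal, from 14.7 to 5.59 units (-1.29). Gm12185 was 2.17-fold lower, also at very low signal (11.5 and 4.90 units, software standard error 0.39), and was well above background only on the NSD array. The remaining usable genes stayed within 1.5-fold, with log2 fold changes of -0.28 for Gbp4, -0.26 for Gbp8, 0.08 for Gbp10, 0.03 for Irgq, a member linked to autophagy, and 0.47 for Gm4951. F830016B08Rik was too dim on both arrays to give a value. The other 6 listed genes had no named probe and were not analysed here.

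The GTPase genes lie in a few tandem arrays, so their fold changes were set in the gene order of the RefSeq annotation. In the array on chromosome 3, Gbp7, Gbp2b and Gbp2 of the 5 genes were lower, and the 4 flanking genes ranged from -0.48 to 0.28 on the log2 scale with none past 1.5-fold. On chromosome 5, Gbp9 alone of 5 GBP genes was lower, and Gbp6 at its end stayed within 1.5-fold. Of the 4 flanking genes, 0 were lower and 1 was higher, Lrrc8c, at 42.8 and 89.7 units (1.18). Its signal lay under 100 units, where spots of the same probe vary most. On chromosome 11, Gm12250, Igtp and Irgm2 stand in a row and all 3 were lower, between flanking genes from -0.38 to 0.42. In the other chromosome 11 array, Irgm1, Gm12185, Tgtp2 and Ifi47 were lower and Tgtp1, between them, was higher. Of the interspersed genes outside the GBP and IRG lists, 9930111J21Rik1 (-0.63) and 9930111J21Rik2 (-1.50) were lower, and Gm5431 (-0.46) stayed within 1.5-fold. Whether these interspersed genes belong to the IRG family was not checked. The flanking genes ranged from -0.01 to 0.28. In the group of Gm4951 and Iigp1 on chromosome 18, neither gene passed 1.5-fold, while of the 4 flanking genes 2 were lower and 1 was higher.

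**Figure D3:**
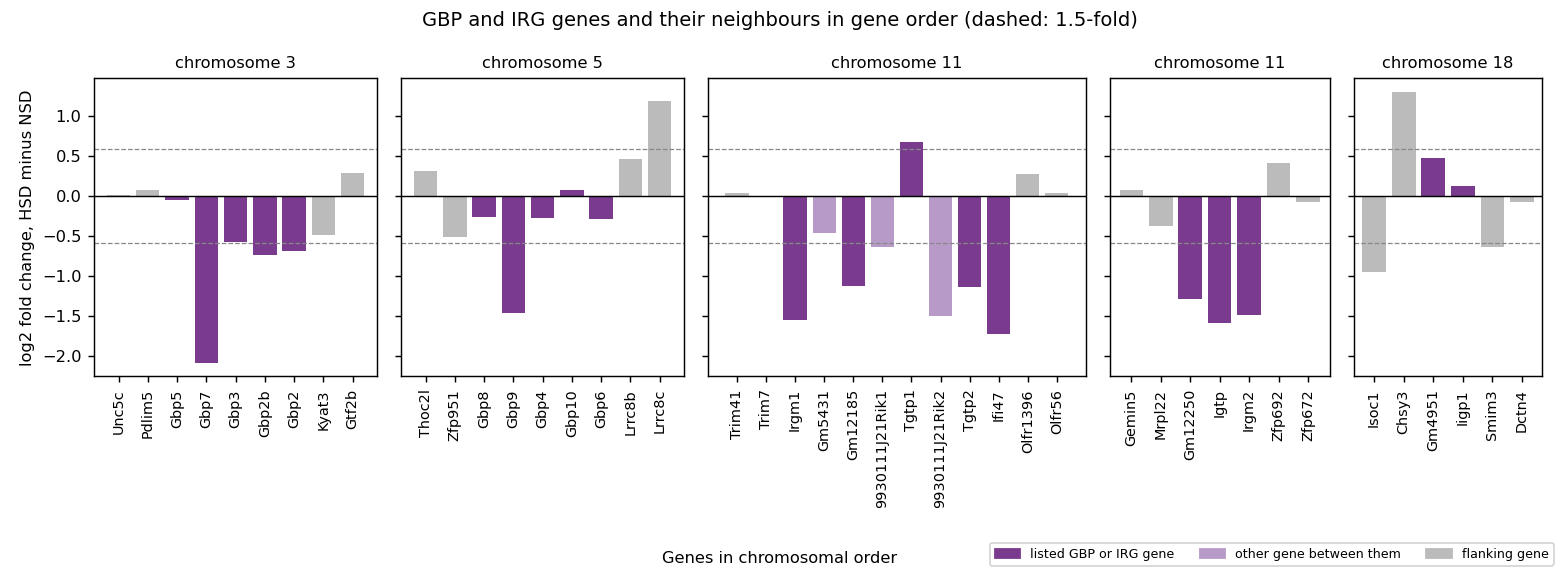
Log2 fold change (HSD minus NSD) of listed GBP and IRG genes (dark purple), genes between them outside the lists (light purple) and flanking genes (grey) in chromosomal order, by the brightest probe of each gene, with dashed lines at 1.5-fold. Gm12185 was well above background only on the NSD array, and genes with no usable probe are left out. The bars of Gm12250, Igtp and Irgm2 point down together between flanking genes with small differences, whereas the chromosome 3 and 5 arrays mix long and short bars.

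The genes that carry the interferon-γ signal did not show a common shift. Of 14 signalling genes, all with a usable probe, 2 were lower and 1 was higher, with a median log2 fold change of 0.093. The RNA of interferon-γ itself (Ifng) was dim in both groups, 9.52 units under NSD and 9.44 under HSD (0.10). Of the receptor genes, Ifngr1 read 10634 and 6864 units (-0.52) and Ifngr2 3708 and 4555 units (0.41), both within 1.5-fold. The receptor kinases Jak1 (0.34) and Jak2 (0.25) and the transcription factors Irf1 (-0.37) and Irf8 (0.09) also stayed within 1.5-fold.

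Nlrc5, the activator of MHC class I genes, read 595 and 305 units (-0.85) by its brighter probe and gave 0.13 by its dimmer one. Of the feedback inhibitors, Socs1 read 239.8 and 169 units (-0.39), within 1.5-fold, and Socs3, which acts mainly on the interleukin-6 and G-CSF receptors, rose from 1515 to 4177 units (2.98-fold, 1.58).

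Other targets of interferon-γ were more often lower than higher. Of 26 usable genes, 12 (46.2%) were lower and 2 higher, with a median of -0.30, against 10.3% lower and 9.86% higher among all genes with a usable probe. The Fc receptor gene Fcgr1 read 305 units under NSD and 21.9 under HSD (-3.68), and the transcription factor gene Batf2 and the ADP-ribosyltransferase gene Parp14 had log2 fold changes of -1.65 and -1.22. Nos2, which makes nitric oxide, read 22.8 and 185 units (3.13), and Upp1 stayed within 1.5-fold (0.55). The chemokine gene Cxcl9 was higher at very low signal, at 6.74 and 13.0 units (1.06, software standard error 0.34). Its other probe was well above background on neither array.

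Of the type I interferon list, 22 of 26 usable genes were lower and none higher, with a median of -2.22, and some of these genes also respond to interferon-γ. Ifi44 read 487 and 23.5 units (-4.26), Ifit3, which binds foreign RNA ends together with its family members, 5648 and 337 units (-3.95), and the oligoadenylate synthetase-like gene Oasl2 6860 and 609 units (-3.38). Of 28 promoters of this list, 13 (46.4%) held an ISRE core and 5 (17.9%) a GAS, against 8 (88.9%) and 5 (55.6%) of the 9 GTPase promoters. The type I list also holds interferon, receptor and kinase genes, and tandem GTPase genes share promoter sequence. These shares are therefore not a like comparison. These lists were chosen with earlier results of these data known, were described by counts and medians and were not compared by a test.

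**Figure D4:**
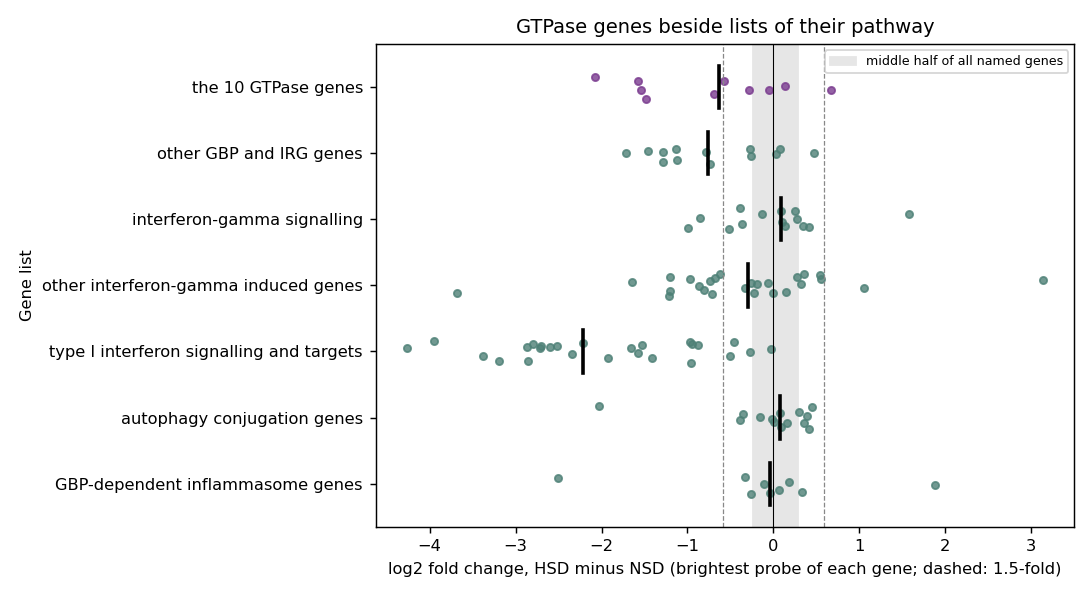
Log2 fold change (HSD minus NSD) of each usable gene, by its brightest probe, in the 10 GTPase genes (purple) and 6 lists of related genes (green), with a black bar at the median of each list, dashed lines at 1.5-fold and a grey band from the lower to the upper quartile of all named genes measured on each array (-0.24 to 0.29). The GTPase genes spread from -2.08 to 0.67, the type I interferon list lies almost wholly to the left of the band, and the interferon-γ signalling and autophagy lists lie mostly near it.

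The genes with which these GTPases work mostly stayed within 1.5-fold, as did most genes with a usable probe, of which 10.3% were lower and 9.86% higher. Of 14 autophagy conjugation and vacuole-marking genes, whose products place GBP and IRG proteins on vacuole membranes, 1 was lower, none was higher, and the median was 0.079. The exception was Trim21, a ubiquitin ligase and itself an interferon target, at 343 units under NSD and 77.7 under HSD (-2.03). Atg5 (-0.39), Atg16l1 (0.39) and Gabarapl1 (0.45) stayed within 1.5-fold. Of 9 genes of GBP-dependent inflammasomes, the cytokine gene Il18 was lower, from 1128 to 183 units (-2.51), and the sensor gene Nlrc4 was higher, from 103 to 350.3 units (1.88). Casp1 (-0.26), Gsdmd (-0.33), Aim2 (0.19) and Il1b (0.33) stayed within 1.5-fold, and the median was -0.040.

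The labelled cell type was checked against marker RNAs. All 10 monocyte and macrophage markers with a probe stood well above background on each array, among them Itgam, which encodes CD11b, at 31564 and 31043 units, and Ly6c1 at 51811 and 48478 units. Other markers of this list moved, with Fcgr1 (-3.68), the phagocytic receptor gene Mertk (-2.52) and the chemokine receptor gene Ccr2 (-0.78) lower and Cd14 (0.82) and Cx3cr1 (0.78) higher. All 10 neutrophil markers with a probe also stood well above background on each array. They included the granule genes Camp, at 61817 and 59919 units, and Ltf, at 51766 and 51993 units, while Ly6g and Ly6c2 had no named probe. The summed signal was 109600 units under NSD and 101400 under HSD over the monocyte and macrophage list, a sum that rests mostly on bright probes within 1.5-fold, and 339200 and 327700 units over the neutrophil list, with 1 lower and none higher. T and NK cells are the usual source of interferon-γ, and the summed signal of their 17 markers was 3542 units under NSD and 3980 under HSD, with 2 of 16 usable genes lower and 1 higher. This sum, too, rests mostly on bright probes within 1.5-fold, such as Cd3d (1501 and 1871 units) and Lck (550 and 680 units). Gene by gene there was no common rise, since 8 markers lay below 0 and 8 above it on the log2 scale. For those above background on each array, the middle value was -0.19. B cell markers summed to 6283 and 7330 units, with none of 7 past 1.5-fold. Of the carcinoma markers, all of them dim, 4 of 9 were higher and none lower, and the summed signal was 244.7 and 239.4 units. Among dendritic cell markers 1 of 7 was lower and 2 were higher, and among fibroblast markers 3 of 7 were lower and 1 was higher, while none of 5 endothelial and 3 erythroid markers passed 1.5-fold by the brightest probe. The dimmer probe of the endothelial gene Kdr went against the brighter one (0.28), at 124 units under NSD and 20.4 under HSD (-2.49). The part of cell composition in the GTPase values was not tested.

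The GMS genes and Gbp7 kept their direction and stayed past 1.5-fold under every processing of the arrays that was tried. Over the values as processed here and 7 alternatives, Igtp ranged from -1.72 to -1.54 on the log2 scale, the brighter Irgm1 probe from -1.69 to -1.54, Irgm2 from -1.63 to -1.30 and Gbp7 from -2.20 to -1.72. Gbp3 ranged from -0.62 to -0.44, so that it crossed the 1.5-fold line with the processing. Tgtp1 ranged from 0.31 to 0.68. At 1.5-fold the number of lower GTPase probes lay between 6, with normexp, and 9. The largest departures came from the normexp correction, which moved the dimmer Iigp1 and Gbp6 probes and Tgtp1 towards 0. It also moved brighter probes, Gbp7 from -2.08 to -1.72 and the dimmer Irgm1 probe from -1.55 to -1.26. The brighter Irgm1 probe stayed at -1.55 and Igtp went only from -1.58 to -1.54. The dimmer Iigp1 probe (0.0041) and Gbp5 (0.075) changed sign. An offset of 50 units by itself shrinks the fold changes of dim probes, but how much of the normexp moves came from it was not tested.

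**Figure D5:**
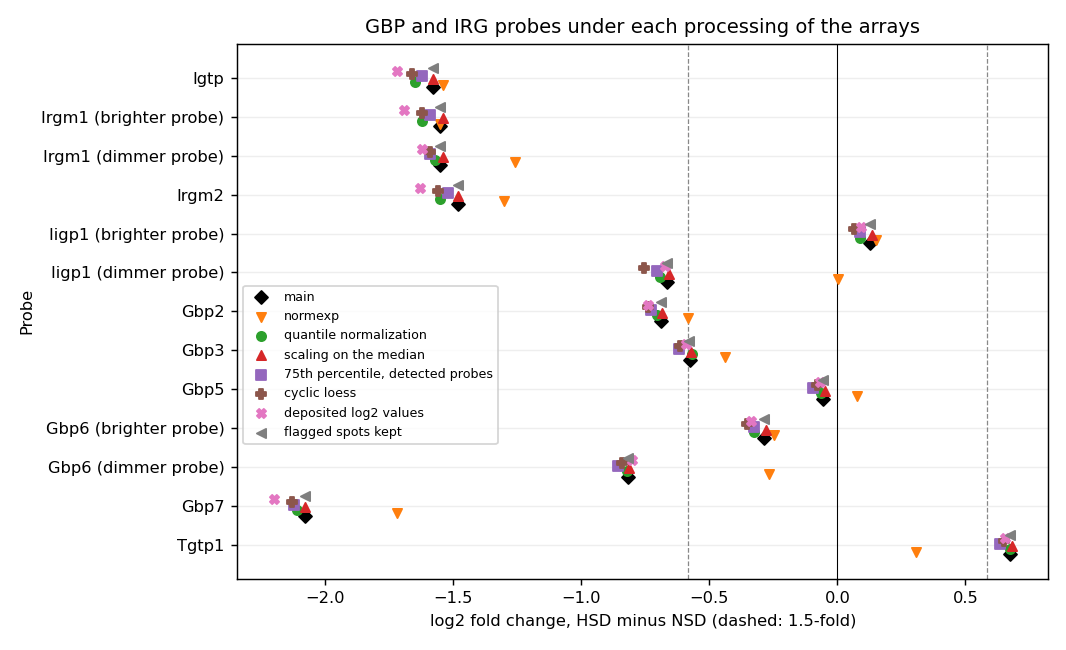
Log2 fold change (HSD minus NSD) of each GTPase probe under the main processing (black diamonds) and 7 alternatives, with dashed lines at 1.5-fold. The symbols of Igtp, Irgm1, Irgm2 and Gbp7 stay well to the left of the 1.5-fold line, and the normexp values (orange) of the dimmer Iigp1 and Gbp6 probes and of Tgtp1 move towards 0.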

How the data were processed

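RNA of tumour M-MDSCs, pooled within each diet group, was measured on 1 Agilent mouse array per group, both on the same slide. The authors deposited scanner output whose processed signal is an intensity, corrected for background and spatial trends by Feature Extraction 11.0.1.1 and not normalised between arrays. The median spot and background intensities that the authors deposited were used for an alternative correction only. The authors also deposited a table of log2 values normalised in GeneSpring GX, by an algorithm that is not given in the sources used here and with columns of nearly the same distribution, which was used as an alternative.

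Control spots and spots flagged as outliers (162 and 179) were left out, log2 signals of a probe's spots were averaged, and each array's 75th percentile was subtracted. A probe was well above background if at least 50% of its spots were (71.9% of probes for NSD, 72.4% for HSD). It was counted if this held on at least 1 array and the fold was at least 1.5. Where it was dim on 1 array, the fold was taken as a bound, with the larger of its own signal and of the lowest signal called well above background there (4.61 units for NSD, 4.39 for HSD). Transcript identifiers were matched, without versions, to RefSeq transcripts of GRCm38.p6, so that 27223 of the 39413 probes (69.1%) had a gene name. The array was annotated on mm9, so its own coordinates were not used, and gene order and promoter windows were taken from RefSeq. Where a gene had several probes, that of highest mean log2 signal stood for the gene, and all probes of the listed GTPase genes are given. Of the 7 lists of processes and 9 of cell type markers, the genes named are the 3 largest rises and falls on both arrays and genes that define a list. Itgam, Ly6c1, Camp and Ltf were named as defining markers, and the other examples outside this rule were named after their values were seen. The members and lists were chosen with earlier results of these data known.

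No test was run, since the number of arrays limits the precision and 1 array per group gives no spread. Simulated arrays with known changes were used to test the counting. Alternatives were normexp (offset 50, on the median signal), quantile normalisation, scaling on the median or, using only probes detected on both arrays, on the 75th percentile, then cyclic loess, the log2 values as deposited, other filters, flagged spots kept, a 2-fold threshold, and the median of a gene's usable probes. The values of 1 listed gene are not reported here. A search of protein motifs was planned and not run, for want of a protein table. Software was limma 3.58.1 in R 4.3.3, and pandas 2.3.3, numpy 2.4.6 and matplotlib 3.10.9 in Python 3.11.15.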

Additional observations from a re-analysis of the deposited data

How the results depend on the processing

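Of 275 values recomputed under 11 alternatives for 33 results, 244 were classed as the same, 30 as moved and 1 as reversed. Many of these values repeat each other, since the fold change of a GTPase gene was mostly that of its brightest probe. The filters on background could not change the GTPase counts, because all 13 probes stood well above background on each array. Fold changes were classed as the same if they stayed within the noise between spots, and counts if they changed by little. A value classed as the same could still cross the fold threshold, as Gbp3 did from -0.577 to -0.615 with cyclic loess. The number of lower GTPase probes, 8 as processed here and 6 with normexp, was also classed as the same. The reversed value was the dimmer Iigp1 probe, at 0.0041 on the log2 scale with normexp. With normexp the median over the 13 GTPase probes was -0.44 and the number of higher GTPase probes 0. At 2-fold, 5 GTPase probes were lower and 0 higher, 5 of the other interferon-γ induced genes were lower, and 0 of the interferon-γ signalling genes were. The number of lower signalling genes at 1.5-fold was 2 as processed here. It was 1 with normexp and with the median of a gene's usable probes. It was 3 with quantile normalisation, cyclic loess and the log2 values as deposited. Over all probes, 2639 were lower and 3030 higher. These counts were 923 and 961 with normexp, 3757 and 6010 without a filter on dim probes, and 1039 and 793 at 2-fold. The share of calls that were higher was 53.4%, against 42.4% with cyclic loess, 61.5% without the filter and 43.3% at 2-fold. How much of the normexp shift came from its offset, and what caused the other shifts, was not tested. No replicate could be left out, with 1 array per group. No paired analysis was possible because each group has 1 sample, whose number is only a name. Signal over background limits Gbp5, Tgtp1 and the dimmer Iigp1 and Gbp6 probes, all under 100 units.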
